A study of Mus musculus with 10 samples.

Results

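The genes described here are 37 cell cycle genes of the mouse colon, 15 that act in DNA replication and the entry into S phase and 22 that act between S phase and the end of mitosis. They were taken by name from a published table of 18398 genes, and all 37 were present. The replication genes were Pcna, Mcm2, Mcm3, Mcm4, Mcm5, Mcm6, Mcm7, Ccne1, Ccne2, Tyms, Rrm1, Rrm2, Tk1, E2f1 and E2f2. The mitosis genes were Mki67, Top2a, Ccnb1, Ccnb2, Cdk1, Aurka, Aurkb, Bub1, Bub1b, Cdc20, Birc5, Plk1, Ccna2, Cenpe, Cenpf, Kif11, Kif20a, Kif23, Nusap1, Tpx2, Ube2c and Foxm1. RNA sequencing had been done on whole colon of wild-type mice, 5 libraries per diet, where one diet was normal and the other pro-inflammatory. Beyond this the labels give no strain, age, sex, diet composition or duration, and they do not say that each library came from a separate animal, so the p-values measure only the spread between these libraries. Levels are in FPKM, fragment counts scaled to transcript length and sequencing depth.

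A cell that commits to division releases the E2F transcription factors, which switch on the genes that copy DNA, among them cyclin E, the MCM helicase subunits, the clamp Pcna and the enzymes that make deoxynucleotides. Later, the MuvB core together with B-Myb and Foxm1 switches on the genes of mitosis, many of which carry a cell cycle genes homology region, called CHR, and CCAAT boxes in their promoters. In the colon the dividing cells sit in the lower part of the crypts, and immune cells in the wall can divide as well. In whole tissue, fewer cells of a type and less RNA per cell cannot be told apart.

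The libraries held 15652783 to 18341956 reads on genes, as recovered from the deposited values. Epithelial markers were present in all 10 libraries, with 12 of 12 markers measured and none listed at 0. Normal diet library 4 stood apart in having 1179 genes listed at 0, against 1671 to 2041 in the other 9. Pro-inflammatory diet libraries 2 and 5 stood apart in Hoxb13, a homeobox gene of the most distal gut (chromosome 11, 96194316 to 96197447, plus strand; GENCODE M21 on GRCm38, the build of all gene coordinates below). Hoxb13 was at 211, 262, 218, 333 and 322 FPKM in normal diet libraries 1 to 5 and at 312, 0.417, 292, 341 and 20.9 FPKM in pro-inflammatory diet libraries 1 to 5. The other 8 libraries thus lay between 211 and 341 FPKM. Hoxd13, another distal homeobox gene, was at 0.0222 and 0.293 FPKM in these libraries and at 16.5 to 47.3 FPKM in the other 8.

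The promoters of both gene groups are shown first, because the libraries ordered the groups differently and the groups also differ in promoter letters. Of the 37 genes, 30 matched a RefSeq promoter (GRCm38.p6, 250 bases before to 50 bases after the start), 13 replication and 17 mitosis genes. Searched on both strands were CCAAT, the CHR as TTTGAA or TTCGAA, and the E2F motif as TTCCCGC or TTGGCGC or TTCGCGC or TTGCCGC. Letters of the E2F motif and of the CCAAT box can share bases. The 250 bases before the start, 5′ to 3′ on the gene's strand, are printed for the replication and the mitosis genes with the smallest unadjusted diet p that held a motif there and had a promoter, with all motif letters in capitals.
Mcm5, chr8:75109259-75109508, plus strand: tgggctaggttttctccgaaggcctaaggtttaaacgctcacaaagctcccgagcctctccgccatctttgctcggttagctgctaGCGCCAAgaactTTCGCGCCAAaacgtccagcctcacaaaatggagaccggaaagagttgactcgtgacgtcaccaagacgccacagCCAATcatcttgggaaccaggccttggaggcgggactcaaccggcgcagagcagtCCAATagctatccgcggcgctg
Mcm7, chr5:138171884-138172133, minus strand: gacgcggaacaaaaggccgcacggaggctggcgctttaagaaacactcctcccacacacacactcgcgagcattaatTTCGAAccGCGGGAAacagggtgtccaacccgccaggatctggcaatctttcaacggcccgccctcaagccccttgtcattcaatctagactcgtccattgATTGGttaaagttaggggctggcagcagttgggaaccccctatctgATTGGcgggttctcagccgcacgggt
Aurka, chr2:172370571-172370820, minus strand: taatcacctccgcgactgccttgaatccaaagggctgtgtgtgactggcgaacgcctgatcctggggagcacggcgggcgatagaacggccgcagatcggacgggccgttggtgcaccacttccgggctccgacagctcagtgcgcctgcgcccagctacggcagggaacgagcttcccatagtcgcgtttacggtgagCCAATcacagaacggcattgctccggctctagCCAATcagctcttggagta
Plk1, chr7:122159185-122159434, plus strand: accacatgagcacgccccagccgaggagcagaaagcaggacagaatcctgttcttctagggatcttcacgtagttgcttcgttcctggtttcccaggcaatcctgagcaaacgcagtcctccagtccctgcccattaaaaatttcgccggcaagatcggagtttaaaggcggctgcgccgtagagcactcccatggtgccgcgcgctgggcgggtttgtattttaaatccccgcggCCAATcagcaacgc
In the Mcm5 window the capitals mark 3 E2F matches and 2 CCAAT boxes and no CHR, and in that of Mcm7 1 E2F match, 2 CCAAT boxes and 1 CHR match 173 bases before the start. For Mcm7, 2 promoters were listed and 1 is printed, which lies inside the gene's GENCODE span of 138164583 to 138172422. The Aurka window held 2 CCAAT boxes and the Plk1 window 1, with no E2F match in either.

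The CHR letters of Aurka and Plk1 lay just after the start, outside the printed stretch. Short windows are printed for some CHR matches of mitosis genes that lay close to the start, again with the motif in capitals.
Plk1, chr7:122159453-122159482, plus strand: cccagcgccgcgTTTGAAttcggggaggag
Aurka, chr2:172370521-172370550, minus strand: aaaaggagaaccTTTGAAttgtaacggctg
Cdk1, chr10:69352910-69352939, minus strand: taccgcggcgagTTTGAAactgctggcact
Ccnb2, chr9:70421533-70421562, minus strand: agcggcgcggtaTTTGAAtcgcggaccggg
Cdc20, chr4:118437344-118437373, minus strand: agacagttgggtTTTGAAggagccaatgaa
The first base of the motif lay 31 bases after the start in Plk1, 33 after it in Aurka and 5 after it in Ccnb2, and 15 bases before it in Cdk1 and 18 before it in Cdc20. Other matches lay farther away, among them 1 at 167 bases before the start in Ccnb2 and 1 at 71 in Cdk1. Mki67 had matches only at 116 and 98 bases before the start, and Top2a at 179, 140, 120 and 23. CHR letters were found in 13 of 17 mitosis promoters (76.5%) and in 3 of 13 replication promoters (23.1%), against 16.4% of the 9889 tested genes with a promoter. Within 50 bases of the start, a window chosen after the positions were seen, they were found in 12 of 17 mitosis and 1 of 13 replication promoters, against 4.37% of tested genes. E2F letters had the opposite order, 7 of 13 replication promoters (53.8%) and 3 of 17 mitosis promoters (17.6%), against 18.9% of tested genes. CCAAT was in 9 of 13 replication promoters (69.2%), 15 of 17 mitosis promoters (88.2%) and 42.6% of tested genes. A gene was counted once, if any of its listed promoters held the letters. These are letter matches only, described with no test.

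The comparison the labels give is that of the diets. On the pro-inflammatory diet 15 of 15 replication genes had a higher mean log2 level, with a median log2 difference of 0.62, and none passed the adjusted threshold in limma, which also called 0% of all 12345 tested genes. The differences had an unadjusted p under 0.05 for 11 of the 15, all of them higher, against 8.16% of tested genes with such a p in that direction and 9.25% in the other. Among the mitosis genes 21 of 22 had a higher mean, with a median log2 difference of 0.16, none with an unadjusted p under 0.05. A higher mean was found for 47.1% of tested genes, whose median was -0.013. For no member were the diets' values free of overlap, against 1.77% of tested genes that were higher and 2.07% that were lower without overlap. All log2 differences are on the log2(FPKM + 1) scale, which understates the differences of genes at low levels.

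**Figure D1:**
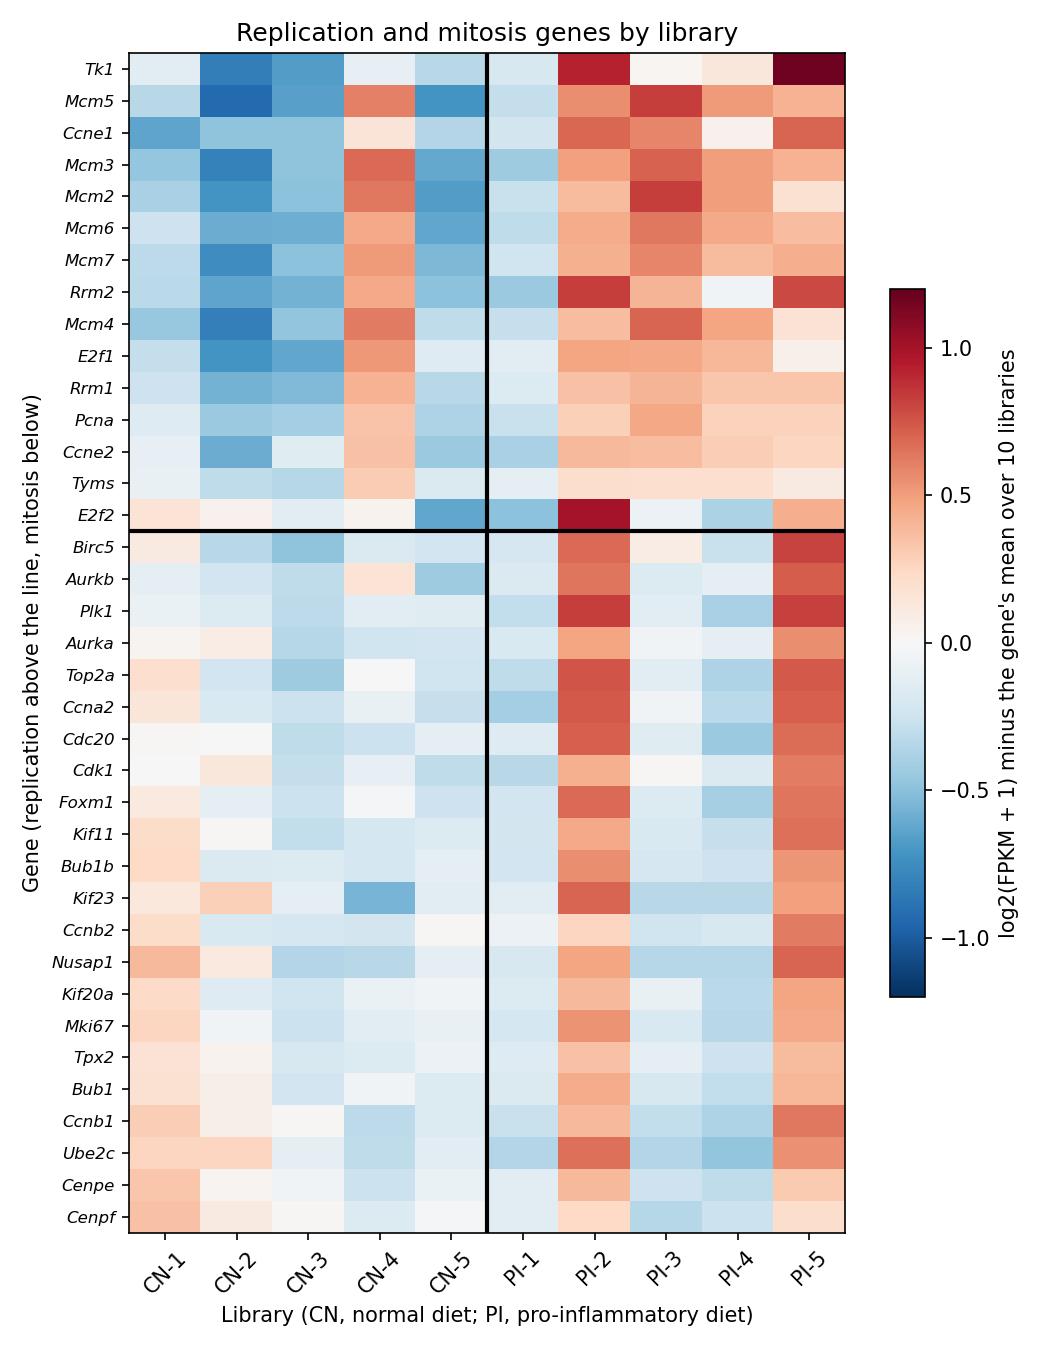
Levels of the 15 replication and 22 mitosis genes (rows) in the 10 libraries (columns, CN for the normal and PI for the pro-inflammatory diet), coloured by log2(FPKM + 1) relative to the gene's mean over the libraries. The replication rows are high in CN-4 and in PI-2 to PI-5, while most mitosis rows are high in PI-2 and PI-5.

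Ccne1, cyclin E1, which activates Cdk2 at the entry into S phase (chromosome 7, 38097984 to 38107534, minus strand), was at 1.37, 1.63, 1.63, 3.10 and 1.89 FPKM in normal diet libraries 1 to 5. It was at 2.16, 4.94, 4.51, 2.81 and 4.98 FPKM in pro-inflammatory diet libraries 1 to 5. Only normal diet library 4 reached into the range of the other diet. The means were 1.92 ± 0.684 and 3.88 ± 1.31 FPKM (SD, n = 5 each), a log2 difference of 0.72 with a standard error of 0.21 and an adjusted p of 0.175 in limma, the lowest of the 37 genes.

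Tk1, thymidine kinase, which salvages thymidine for DNA synthesis (chromosome 11, 117815526 to 117826092, minus strand), was at 8.59, 4.95, 5.64, 8.83 and 7.38 FPKM on the normal diet and at 8.23, 19.0, 9.68, 10.6 and 22.7 FPKM on the pro-inflammatory diet. Pro-inflammatory diet libraries 2 and 5 were the highest, and library 1 of that diet lay below normal diet libraries 1 and 4. The log2 difference was 0.82 with a standard error of 0.27 and an adjusted p of 0.193 in limma.

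Mcm5, Mcm6 and Mcm7 are subunits of the ring-shaped helicase that unwinds DNA at the fork. Mcm5 (chromosome 8, 75109569 to 75128439, plus strand) was at 12.8, 8.14, 10.1, 25.4 and 9.58 FPKM on the normal diet and at 13.3, 24.6, 29.9995, 23.9 and 22.3 FPKM on the pro-inflammatory diet. Normal diet library 4 lay among the high libraries of the other diet, and pro-inflammatory diet library 1 lay next to the highest of the remaining normal libraries. The means were 13.2 ± 7.03 and 22.8 ± 6.07 FPKM (SD, n = 5 each), with a log2 difference of 0.81, a standard error of 0.29 and an adjusted p of 0.212 in limma.

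Mcm7 (chromosome 5, 138164583 to 138172422, minus strand) repeated this order, at 17.4, 12.6, 15.3, 31.7 and 14.8 FPKM on the normal diet and 18.4, 29.9, 33.4, 28.7 and 30.1 FPKM on the pro-inflammatory diet. For Mcm6 (chromosome 1, 128331590 to 128359664, minus strand) the levels were 17.6, 13.6, 13.7, 29.4 and 13.4 FPKM against 16.9, 29.2, 33.2, 29.2 and 27.5 FPKM. Normal diet library 4 made the diets overlap in both genes, and for Mcm6 pro-inflammatory diet library 1 also lay below normal diet library 1. In both the log2 difference was 0.64 with a standard error of 0.23 and an adjusted p of 0.218 in limma. Mcm2, Mcm3 and Mcm4, the remaining subunits, ran from 7.68 to 27.5 FPKM and had the same 5 highest libraries.

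Pcna, the sliding clamp that holds the polymerase on DNA (chromosome 2, 132249162 to 132253314, minus strand), had the highest level of the 37 genes per transcript length. It was at 69.9, 57.0, 58.4, 98.9 and 59.8 FPKM on the normal diet and 64.5, 95.4, 108, 94.4 and 94.3 FPKM on the pro-inflammatory diet. The same 2 libraries as for Mcm6, normal diet 4 and pro-inflammatory diet 1, made the diets overlap. Its log2 difference was 0.41 with a standard error of 0.17 and an adjusted p of 0.259 in limma.

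Rrm1 and Rrm2, the subunits of ribonucleotide reductase, were at 12.3 to 25.3 and 4.74 to 14.9 FPKM over the 10 libraries, and Tyms, thymidylate synthase, at 4.58 to 7.73 FPKM. E2f2, an activator E2F, was the replication gene with the smallest diet difference, 0.20 with an unadjusted p of 0.49 in limma. It was at 3.86, 3.48, 2.97, 3.45 and 1.80 FPKM on the normal diet and 2.09, 7.66, 3.13, 2.32 and 4.84 FPKM on the pro-inflammatory diet. Only libraries 2 and 5 of the latter diet stood above the rest, the order found in most mitosis genes.

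Among the mitosis genes, Birc5, or survivin, a subunit of the chromosomal passenger complex (chromosome 11, 117849251 to 117855743, plus strand), had the largest diet difference, 0.44 with a standard error of 0.22 and an adjusted p of 0.313 in limma. It was at 15.9, 11.5, 10.2, 12.9 and 12.3 FPKM on the normal diet and at 12.6, 24.1, 15.7, 12.1 and 26.5 FPKM on the pro-inflammatory diet. Libraries 1, 3 and 4 of the pro-inflammatory diet lay inside the normal range, and libraries 2 and 5 above it.

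Aurkb, the kinase of the same complex (chromosome 11, 69045647 to 69051664, plus strand), was at 7.37, 6.73, 6.37, 9.19 and 5.76 FPKM on the normal diet and at 7.03, 13.2, 7.08, 7.41 and 14.0 FPKM on the pro-inflammatory diet. Aurka, the spindle pole kinase (chromosome 2, 172356190 to 172370535, minus strand), was at 5.57, 5.81, 4.05, 4.41 and 4.48 FPKM against 4.64, 7.92, 5.20, 4.91 and 8.44 FPKM. In both kinases libraries 2 and 5 of the pro-inflammatory diet were the highest of all 10. Their log2 differences between the diets were 0.37 and 0.28, with adjusted p of 0.365 and 0.383 in limma.

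Plk1, the polo-like kinase that drives mitotic entry (chromosome 7, 122159439 to 122169873, plus strand), showed the split most plainly. On the normal diet it was at 7.93, 7.46, 6.59, 7.66 and 7.54 FPKM, and on the pro-inflammatory diet at 6.72, 15.9, 7.65, 6.22 and 15.7 FPKM. Outside libraries 2 and 5 of the pro-inflammatory diet its values thus ran only from 6.22 to 7.93 FPKM. Its diet means were 7.44 ± 0.506 and 10.4 ± 4.91 FPKM (SD, n = 5 each), a log2 difference of 0.34 with an adjusted p of 0.468 in limma.

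Cdk1, the kinase that starts mitosis (chromosome 10, 69335146 to 69352938, minus strand), was at 5.88, 6.60, 4.67, 5.46 and 4.59 FPKM on the normal diet and at 4.4999, 8.31, 5.996, 5.14 and 9.58 FPKM on the other. The proliferation marker Mki67 (chromosome 7, 135689784 to 135716361, minus strand) was at 24.2, 19.4, 16.6, 18.2 and 18.8 FPKM against 17.2, 29.6, 17.5, 15.6 and 27.8 FPKM. Top2a, the topoisomerase that untangles sister chromosomes (chromosome 11, 98992943 to 99024189, minus strand), was at 26.3, 19.2, 16.7, 22.8 and 19.1 FPKM against 18.2, 38.9, 20.5, 17.4 and 38.6 FPKM. All 3 had their highest values in libraries 2 and 5 of the pro-inflammatory diet, and their log2 diet differences of 0.22, 0.11 and 0.27 had adjusted p of 0.505, 0.772 and 0.554 in limma. Cenpf, a kinetochore protein (chromosome 1, 189640606 to 189688086, minus strand), was the 1 member with a lower mean on the pro-inflammatory diet. It was at 3.98, 3.20, 2.94, 2.49 and 2.86 FPKM against 2.58, 3.61, 2.07, 2.26 and 3.51 FPKM, a log2 difference of -0.11 with an adjusted p of 0.669 in limma, and the diets overlapped throughout.

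These orders were shared within each group. The libraries named in them were picked after the values were seen, so the counts describe and test nothing. Normal diet library 4 and pro-inflammatory diet libraries 2 to 5 were the 5 highest libraries for 14 of 15 replication genes, E2f2 being the exception, for 0 of 22 mitosis genes and for 3.95% of tested genes. Pro-inflammatory diet libraries 2 and 5 were the 2 highest for 20 of 22 mitosis genes, Cenpe and Cenpf being the exceptions, for 4 of 15 replication genes and for 13.9% of tested genes. Pro-inflammatory diet library 1 was the lowest of its diet for 15 of 15 replication and 4 of 22 mitosis genes, against 14.4% of tested genes.

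In size, normal diet library 4 was at 1.07 times (E2f2) to 2.59 times (Mcm5) the median of the other 4 normal libraries over the replication genes, with a median of 2.11. Over the mitosis genes it was at 0.638 times (Kif23) to 1.40 times (Aurkb) that median, with a median of 0.921. In pro-inflammatory diet library 2 the mitosis genes were at 1.33 (Cenpf) to 2.12 times (Plk1) the median of the 8 libraries with high Hoxb13, and in library 5 at 1.29 (Cenpf) to 2.13 times (Birc5). Replication genes were also above that median in both, at a median of 1.69 times in library 2 and 1.58 times in library 5. Library 4 of the normal diet was thus high in replication and not in mitosis genes, and libraries 2 and 5 of the other diet were high in both groups. The part that the low number of genes at 0 in normal diet library 4 has in this was not tested.

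The mean log2(FPKM + 1) over the 15 replication genes was 3.26, 2.92, 3.05, 3.93 and 3.08 in normal diet libraries 1 to 5 and 3.25, 4.05, 4.002, 3.80 and 3.93 in pro-inflammatory diet libraries 1 to 5. Over the 22 mitosis genes it was 3.40, 3.21, 2.999, 3.06 and 3.07 on the normal diet and 3.02, 3.77, 3.06, 2.93 and 3.81 on the pro-inflammatory diet. The replication level exceeded the mitosis level most in normal diet library 4 and pro-inflammatory diet libraries 3 and 4, by 0.87, 0.94 and 0.87 log2 units. In the other 7 libraries the difference lay between -0.29 and 0.28. The mean diet difference was 0.56 for the replication and 0.17 for the mitosis genes, a gap of 0.39 that is given with no test because the members were chosen with results known. Without normal diet libraries 1, 2 and 3 this gap was 0.05.

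**Figure D2:**
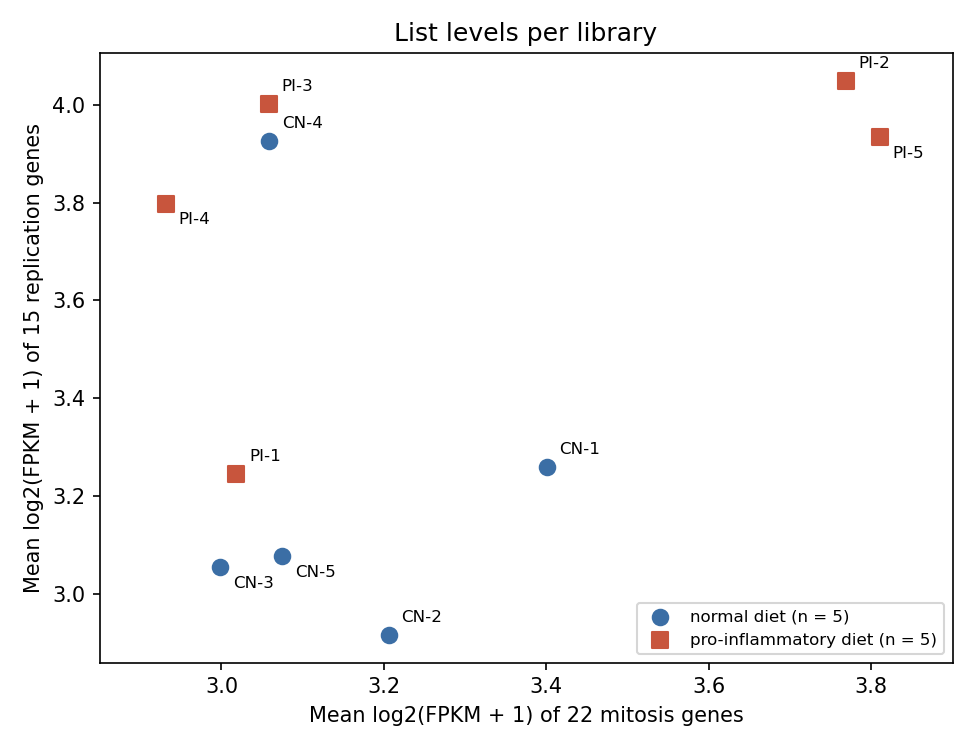
Mean log2(FPKM + 1) of the 15 replication genes (vertical axis) and the 22 mitosis genes (horizontal axis), 1 point per library, CN for the normal and PI for the pro-inflammatory diet. PI-2 and PI-5 are high on both axes, while CN-4, PI-3 and PI-4 are high in replication genes with mitosis levels of 3.06, 3.06 and 2.93.

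The diet result depended on single libraries. Without pro-inflammatory diet libraries 2 and 5, 14 of 15 replication genes still had a higher mean on that diet, with a median log2 difference of 0.50, but only Ccne1 (0.50) and Tk1 (0.40) had an unadjusted p under 0.05 in limma, against 8.06% of tested genes. In the same fit 19 of 22 mitosis genes had a lower mean, with a median of -0.14, and Ccnb1, Cenpf and Ube2c had an unadjusted p under 0.05, against 7.36% of tested genes in that direction. No gene passed the adjusted threshold in it. With 1 library left out, the count of replication genes with an unadjusted p under 0.05, 11 in all libraries, moved in both directions. Without normal diet library 1, 2, 3 or 5 it was 6, 4, 5 and 6, against 6.49%, 5.25%, 5.82% and 6.5% of tested genes that were higher with such a p. Without pro-inflammatory diet library 2, 3, 4 or 5 it was 6, 6, 7 and 7, against 6.63%, 7.65%, 8.82% and 6.54%. It was 14 without normal diet library 4, against 9.87%, and 14 without pro-inflammatory diet library 1, against 9.39%. Over these fits the lowest adjusted p of a replication gene in limma ran from 0.065, without normal diet library 4, to 0.347, without normal diet library 3. Without normal diet libraries 1, 2 and 3, the mean over the replication genes was 0.30 and none had an unadjusted p under 0.05, against 1.81% of tested genes.

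**Figure D3:**
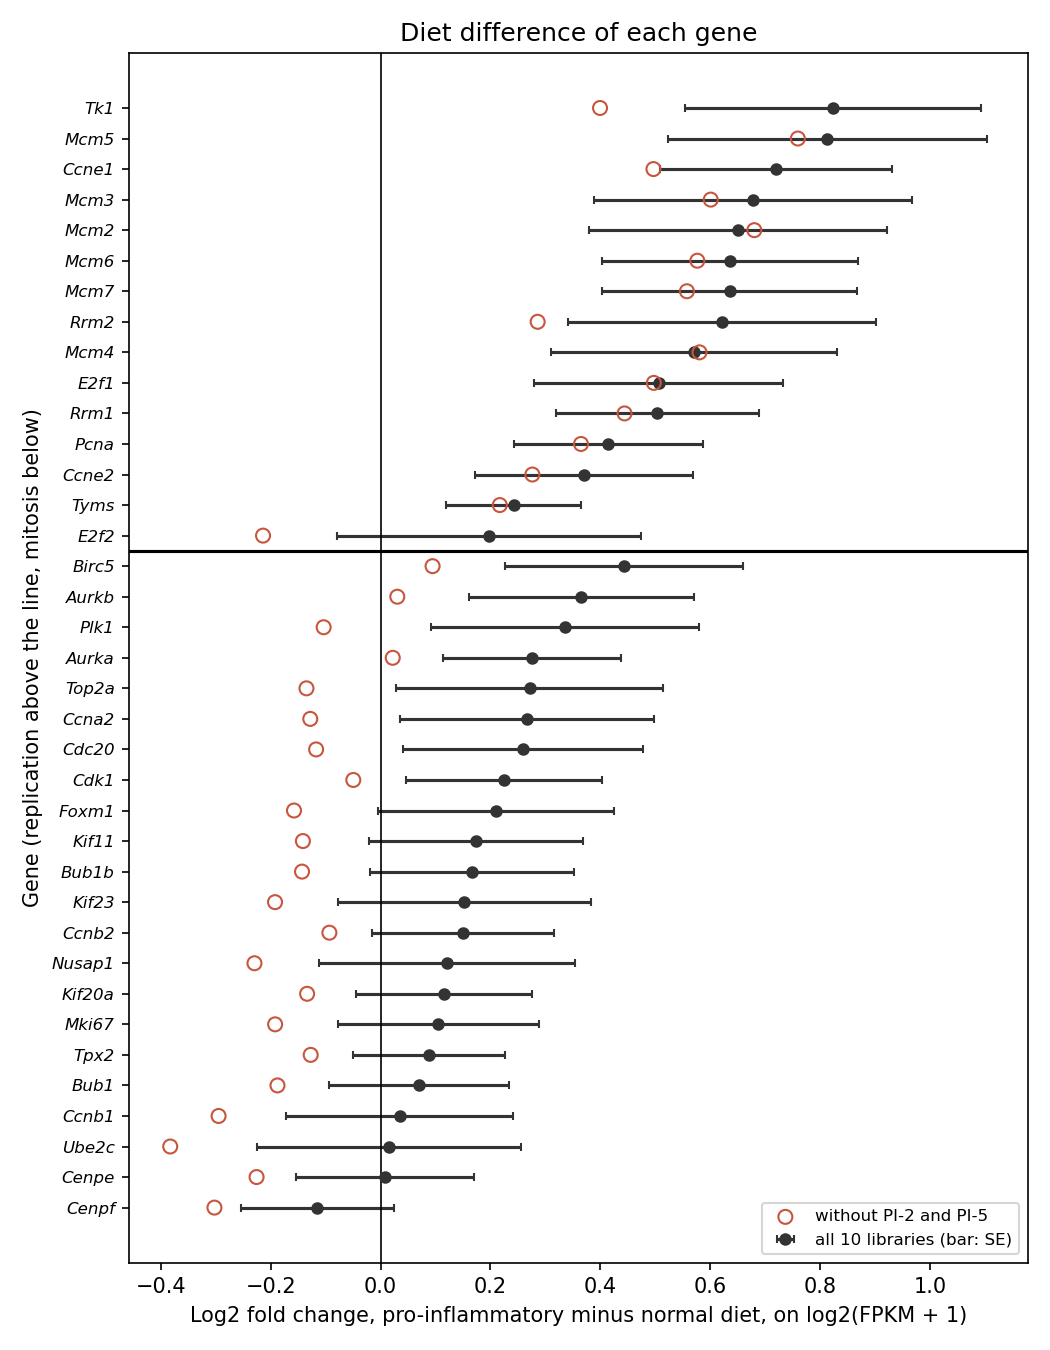
Diet difference of each of the 37 genes in log2(FPKM + 1), pro-inflammatory minus normal, with its standard error from limma (filled points and bars, 10 libraries) and the same without PI-2 and PI-5 (open circles). The open circles of 14 of 15 replication genes stay above 0, and those of 19 of 22 mitosis genes lie below it.

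Markers of other cell types also differed between the diets, and their part in the differences above was not tested. Of all tested genes 47.1% had a higher mean on the pro-inflammatory diet. With an unadjusted p under 0.05 in limma, 8.16% were higher and 9.25% lower. All 12 smooth muscle markers had a lower mean on the pro-inflammatory diet, 9 of them with an unadjusted p under 0.05 in limma, and their summed level was 2911 to 4304 FPKM on the normal and 2524 to 3471 FPKM on the pro-inflammatory diet. Of 12 epithelial markers 9 had a higher mean, and the sums were 6426 to 8445 and 7569 to 9014 FPKM. All 6 tested T cell markers had a higher mean on the pro-inflammatory diet, 3 with an unadjusted p under 0.05 in limma. T cell markers, 7 of 8 measured, summed to 7.27 to 12.3 FPKM on the normal diet and to 19.2, 34.0, 10.04, 9.97 and 26.3 FPKM in pro-inflammatory diet libraries 1 to 5. The T cell sum was thus highest in the same libraries, 2 and 5, as the mitosis genes. Macrophage markers, 8 of 8 measured, summed to 237 to 343 and 232 to 417 FPKM. All 8 had a higher mean on the pro-inflammatory diet, 1 with an unadjusted p under 0.05 in limma. Of the red blood cell and erythroid precursor markers 4 of 5 tested had a higher mean. An unadjusted p under 0.05 in limma was found for 3 of them, and the median log2 difference of the 5 was 0.88. The 7 measured summed to 46.6 to 80.4 and 56.5 to 124 FPKM. Within these sums Tfrc alone was at 27.1 to 54.7 and 27.0 to 57.3 FPKM. All 10 B cell markers had a higher mean, none with such a p, at sums of 22.7 to 54.1 and 34.2 to 97.2 FPKM. All 6 fibroblast markers had a lower mean, 2 with such a p, at sums of 314 to 394 and 222 to 330.3 FPKM.

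Hoxb13 was then set against each gene, in a limma model of diet and log2(Hoxb13 + 1) on 12344 genes. Because the libraries fall into 8 with high and 2 with low Hoxb13, no pooled correlation is given, and the slopes rest on that step. Mitosis genes were lower with more Hoxb13: 22 of 22 slopes were negative, against 48.8% of tested genes, and 22 had an unadjusted p under 0.05, against 15.1%. Of these 18 passed the adjusted threshold in limma, against 7.96% of tested genes called as lower and 7.87% as higher. Of the replication genes 13 of 15 slopes were negative and 1, E2f2, passed. Without pro-inflammatory diet library 1, 10 of the 15 slopes were positive, and their median went from -0.020 to 0.012. Other refits went the other way. Without pro-inflammatory diet library 3 or 4, 0 of the 15 were positive, with medians of -0.043 and -0.031. Without diet in the model 0 of the 15 were positive too. Their median was then -0.072, against -0.105 for the mitosis genes. That the slopes of the groups differ was not itself tested.

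Plk1 had the steepest slope of the mitosis genes, -0.157 log2 units per log2 unit of Hoxb13, with a standard error of 0.027 and an adjusted p of 0.00443 in limma. Slopes of Ube2c, which carries ubiquitin to mitotic cyclins, and Ccna2, cyclin A2, were -0.151 and -0.144, with adjusted p of 0.00677 and 0.00829 in limma. Top2a and Mki67 had slopes of -0.146 and -0.112 and adjusted p of 0.014 and 0.0108 in limma. The mitosis genes that missed the threshold were Ccnb2, Cdk1, Cenpf and Nusap1, with adjusted p of 0.135, 0.0624, 0.0611 and 0.0593 in limma. Their slopes were negative too, down to the shallowest, that of Cenpf at -0.072.

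E2f2 had a slope of -0.175 with a standard error of 0.032 and an adjusted p of 0.0064 in limma, so it lay with the mitosis genes in this fit also. Tk1 and Rrm2 had slopes of -0.139 and -0.117, with adjusted p of 0.0598 and 0.175 in limma. The 6 MCM slopes lay between -0.024 and 0.0085, with adjusted p from 0.835 to 0.981 in limma. Pcna, Rrm1, E2f1 and Tyms lay in the same range, from -0.016 to -0.010, with Ccne1 at -0.074 and Ccne2 at -0.037 between these genes and the steeper ones.

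**Figure D4:**
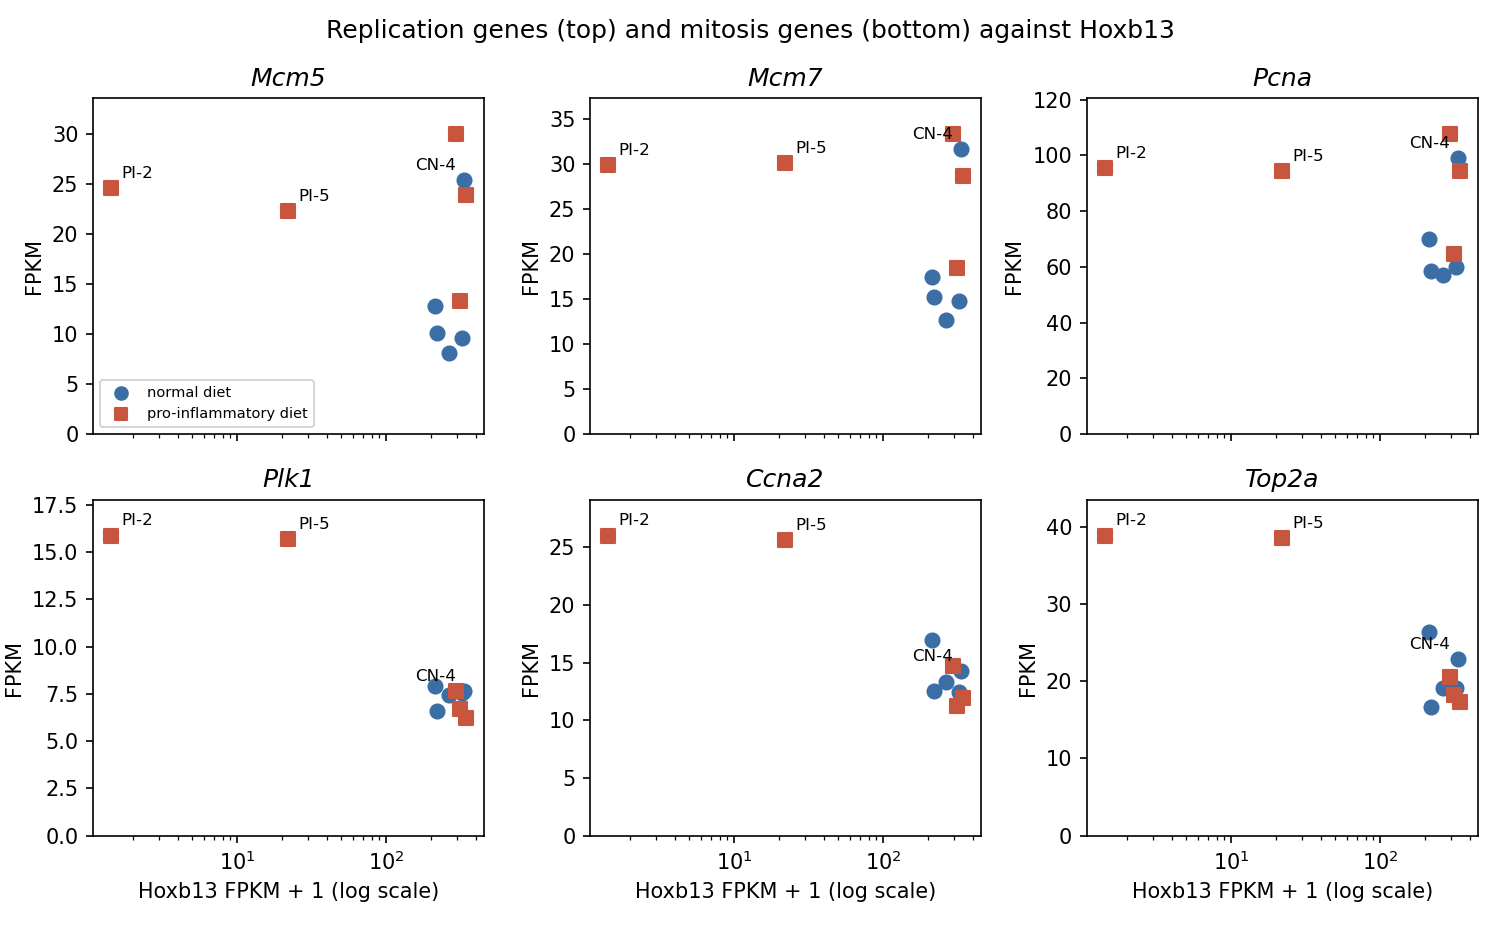
FPKM of Mcm5, Mcm7 and Pcna (top row) and Plk1, Ccna2 and Top2a (bottom row) against Hoxb13 as FPKM + 1 on a log axis, 1 point per library. In the bottom row the libraries with Hoxb13 at 0.417 and 20.9 FPKM lie above the other 8, and in the top row several of those 8 are as high.

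The Hoxb13 calls rest on pro-inflammatory diet libraries 2 and 5: without both, 0 genes of either group passed, against 0.113% of tested genes. In that limma fit 2 mitosis and 0 replication genes had an unadjusted p under 0.05, against 5.84% of tested genes as lower and 4.03% as higher. The slopes were negative for 20 of 22 mitosis genes and positive for 14 of 15 replication genes, where the median over all tested genes was -0.048. Without pro-inflammatory diet library 1, 3 or 4, the count of mitosis genes past the threshold went from 18 to 11, 9 and 8, and the share of tested genes called as lower went from 7.96% to 7.52%, 5.02% and 3.56%. Leaving out any other library gave 14 to 19 mitosis genes and 6.08% to 8.29% of tested genes. Other markers moved with Hoxb13 as well: 5 of 6 tested T cell markers, 4 of 8 macrophage markers and 3 of 12 epithelial markers passed as lower with more Hoxb13, as did 0 of 10 B cell and 0 of 12 smooth muscle markers. A further epithelial marker, 1 of the 12, passed as higher. Of the crypt stem cell genes 1 of 14 passed as lower and 2 as higher. Of all tested genes 7.96% passed as lower and 7.87% as higher. The 1 of 12 epithelial markers and the 1 of 14 crypt genes lie near these shares. The part of all these markers in the Hoxb13 slopes was not tested.

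Other genes of the same steps were counted likewise. Of 42 further replication genes (origin recognition, GINS, polymerases, clamp loader), 39 had a higher mean on the pro-inflammatory diet, against 47.1% of tested genes. Of the 42, 24 were higher with an unadjusted p under 0.05 in limma, against 8.16% of tested genes. Their median log2 difference was 0.38, and none passed the adjusted threshold. Rfc2, a clamp loader subunit, was at 20.1 ± 1.49 and 28.0 ± 3.94 FPKM (SD, n = 5 each), with no overlap between the diets and an adjusted p of 0.151 in limma. Rfc5, of the same complex, and Prim2, of primase, had log2 differences of 0.60 and 0.40. In 28 of the 42 genes the 5 highest libraries were the same as for Mcm5, against 3.95% of tested genes. Normal diet library 4 was the highest of its diet in 38 of the 42, against 22.3% of tested genes.

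Of 43 further mitosis genes 36 had a higher mean on the pro-inflammatory diet, against 47.1% of tested genes, with a median of 0.14. Of the 43, 1 was higher with an unadjusted p under 0.05 in limma, against 8.16% of tested genes. Libraries 2 and 5 of that diet were the 2 highest for 34 of the 43, against 13.9% of tested genes. Hoxb13 slopes were negative in 42 of the 43, against 48.8% of tested genes. As lower with more Hoxb13, 23 of the 43 passed the adjusted threshold, against 7.96% of tested genes and 1 of the 42 replication genes. CHR letters were in 29 of 38 promoters of these mitosis genes and in 7 of 34 of the further replication promoters. The share of tested genes with CHR letters was 16.4%. E2F letters were in 8 of 38 and 22 of 34, against 18.9% of tested genes.

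The regulators of the cycle were mixed. Of all tested genes 47.1% had a higher mean on the pro-inflammatory diet, and 8.16% were higher with an unadjusted p under 0.05 in limma. Of 8 G1 cyclins and kinases 4 had a higher mean on the pro-inflammatory diet and 3 an unadjusted p under 0.05 in limma, namely Cdk2, the partner of cyclin E, Cdk4, the partner of cyclin D, and Ccnd1, cyclin D1, at log2 differences of 0.27, 0.26 and 0.38. Of 18 inhibitors and checkpoint genes 9 had a higher mean and 9 a lower one. Of 14 E2F and MuvB regulators 13 were tested and 7 had a higher mean. The smallest diet p in that list, 0.00933 with an adjusted p of 0.185 in limma, was that of Tfdp2, a dimerization partner of E2F, which had a lower mean, at -0.28. Mybl2, which is B-Myb, was at 0.56 and E2f8, a repressor E2F, at 0.59. Mybl2 had a Hoxb13 slope of -0.135 with an adjusted p of 0.021 in limma. Pkmyt1, which holds Cdk1 inactive, had one of -0.091 with an adjusted p of 0.021 in limma. As lower with more Hoxb13, 1 of 13 regulators and 1 of 18 inhibitors and checkpoint genes passed, against 7.96% of tested genes. None of these genes passed the adjusted threshold for diet.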

How the data were processed

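Whole colon RNA of 10 libraries had been sequenced on an Illumina instrument after a stranded mRNA preparation, per the labels' protocols. The deposited table holds the authors' FPKM per gene. For the reads, HISAT2, Cufflinks, HTSeq and the build mm10 stand in the submitters' processing notes, without versions or order. No source used here says whether strand was used in counting. The members and lists were chosen with earlier results of these data known. Groups were taken from the diet labels.

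A filter at a mean FPKM of 1 kept 12345 of 18398 genes, all 37 members among them. Their log2(FPKM + 1) values went into limma 3.58.1 (R 4.3.3), with trended empirical Bayes moderation, and p-values were adjusted by Benjamini-Hochberg over these genes at a threshold of 0.05. Hoxb13 slopes came from a model of diet and log2(Hoxb13 + 1). FPKM steps gave whole reads, within 0.001 read, for 18398 of 18398 genes, which provided the depths and a weighted count fit (voom). The scripts were tested on simulated data. Values in every library are given for the 5 replication and 5 mitosis genes with the smallest unadjusted diet p, for Pcna, Mki67, Top2a and Hoxb13, and for any member with a lower mean on the pro-inflammatory diet. From each other list at most 3 genes with the smallest diet p are named. E2f2, Rrm1, Rrm2, Tyms, the genes of single slopes and the extremes of ranges were named after their values were seen. Alternatives were other pseudocounts, filters, scalings and covariates, the replicate number as a block, and libraries left out. Promoters and motif positions are from RefSeq on GRCm38.p6, gene coordinates from GENCODE M21. A marker result that names a withheld item is not reported here.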

Additional observations from a re-analysis of the deposited data

Results flagged for a closer look

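Of 36 groups of 5 libraries checked, 18 genes on each diet, 3 held a library far from the others, where chance alone flags about 1 group in 20. All were the lowest value of pro-inflammatory diet library 1. The check was made on log2(FPKM + 1). On that scale its gap to the next library was taken as a share of the range within the diet. It was 0.747 for Mcm7, 0.719 for Mcm6 and 0.74 for Pcna, against a critical value of 0.71 for 5 libraries. On the FPKM printed above the shares are smaller, and all 3 fall below that value. The 3 genes share libraries and are not independent.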

How the results depend on the processing

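The mean diet difference of the replication genes, 0.56, kept its direction in all 23 alternatives, and was 0.48 to 0.73 with 1 library left out. With Hoxb13 as a covariate it was 0.47, and 6 of 15 had an unadjusted p under 0.05 in limma, against 11 without it. With smooth muscle minus epithelial level as a covariate it was 0.44. In that fit 0 of 15 had such a p, and their lowest adjusted p in limma was 0.562. Of 12345 tested genes 993 and 683 were higher with such a p in these fits. The mean diet difference of the mitosis genes, 0.17, was 0.05 to 0.27 with 1 library left out. It became -0.145 without pro-inflammatory diet libraries 2 and 5, -0.065 with Hoxb13 as a covariate, -0.027 with smooth muscle minus epithelial level as a covariate, and -0.167 when normal diet library 4 was also left out with libraries 2 and 5, an alternative chosen after seeing the data. The cause was not tested. In that last alternative the mean of the replication genes was 0.605. Of the 15, 13 were higher with an unadjusted p under 0.05 in limma, with 0 past the adjusted threshold. Of 12345 tested genes 1452 were higher with such a p there. In the same fit Aurka was at -0.0041, Plk1 at -0.094, Cdk1 at -0.046, Mki67 at -0.212, Top2a at -0.099 and Hoxb13 at 0.33. Without libraries 2 and 5 alone Plk1 was at -0.104, Cdk1 at -0.050, Mki67 at -0.192, Top2a at -0.135 and Hoxb13 at 0.25. With the Hoxb13 covariate Mki67 was at -0.127 and Top2a at -0.033, and with the tissue covariate Cdk1 was at -0.096 and Mki67 at -0.047. Mki67 was at -0.017 without pro-inflammatory diet library 2 and between that and 0.20 over all single libraries left out. Cenpf was at 0.033 without normal diet libraries 1, 2 and 3. Over all tested genes 1 was called with the tissue covariate, against 0. The Hoxb13 count of mitosis genes, 18, became 0 without libraries 2 and 5 and 8 to 19 with 1 library left out. That of the replication genes, 1, became 0 with a mean FPKM of at least 5, where E2f2 was not tested, 0 without libraries 2 and 5 and 2 without diet in the model. With the replicate number as a replicate block, 0 of 12345 genes were called and the mean replication difference was again 0.559. Same-numbered libraries did not pair: their deviations correlated at -0.263 to 0.061, and 0 of 5 numbers correlated best with their own. The lowest member levels, such as those of Ccne1, rest on 44 reads, which limits their precision.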

Other observations

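Genes of the crypt stem cell compartment did not share the direction of the replication genes. Of 14 such genes 7 had a higher and 7 a lower mean on the pro-inflammatory diet, where 47.1% of tested genes had a higher mean. A lower mean with an unadjusted p under 0.05 in limma was found for 3 of the 14, against 9.25% of tested genes. The 3 were Ephb3, a receptor that positions cells along the crypt, at a log2 difference of -0.49, Sox9, a transcription factor of the crypt base, at -0.51, and Tnfrsf19, a Wnt target, at -0.33. None passed the adjusted threshold. Tnfrsf19 was at low levels, with means of 1.39 FPKM on the normal and 0.910 FPKM on the pro-inflammatory diet. The summed level of the 14 genes was 318 to 343 FPKM on the normal and 293 to 362 FPKM on the pro-inflammatory diet. Most of it was Cdx1, at 173 to 211 and 172 to 227 FPKM, so the sum mainly follows that gene.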
